A study of Oryza sativa Japonica Group with 17 samples.

Results

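WRKY proteins are plant transcription factors, named for a conserved stretch of amino acids in their DNA-binding domain, which contacts W-box elements in the promoters of target genes. In rice many of them act in defence, where they respond to receptors at the cell surface through kinase cascades and salicylate or jasmonate signalling, and others act in gibberellin and abscisic acid responses and in growth. Some members activate defence genes and others repress them. The genes described here are those whose annotated symbol or synonym is WRKY, with or without a leading Os, followed by digits and nothing else. This held for 6 genes with 7 probe sets, out of 17905 genes with a probe set of 1 gene. They are WRKY24 (LOC4327518), WRKY71 (LOC4328512), WRKY51 (4335388), WRKY62 (LOC4347070), WRKY76 (LOC4347069) and WRKY9 (LOC4343736). Where a gene had several probe sets, which held for WRKY71 alone, the one with the highest mean over all 17 samples stands for it. The rice genome is known to hold many more WRKY genes. Those without such a name in the annotation used here, WRKY45, WRKY53 and WRKY13 among them, were not analysed here.

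All samples were roots of Oryza sativa Japonica Group, cultivar Nipponbare, from plants grown in water culture for 18 days with 1 mM ammonium as the nitrogen source, 1 array each. Cytosolic glutamine synthetase joins ammonium to glutamate, and the study disrupted its genes OsGS1;1 and OsGS1;2. The NC2373 gs1;1 group (n = 2) and the ND8037 gs1;1 group (n = 3), below also the NC2373 and ND8037 mutants, are homozygous Osgs1;1 plants from separate insertion lines. Their controls are NC2373 no insertion (n = 3) and ND8037 null (n = 3), plants without the insertion that segregated from heterozygous parents of each line. The gs1;2 group (n = 3) is homozygous for Osgs1;2 and was compared with wild type (n = 3), since the labels list no segregated control for it. The disruption of OsGS1;2 and any other change carried by those plants cannot be told apart. The number of plants behind a sample is not given in the sources used here.

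Signals are given as deposited, normalized by RMA and on a log2 scale, so a difference of 1 is a doubling of signal. Group values are mean ± SD, and differences carry the standard error (SE) and adjusted p of limma, fitted to all 57258 probe sets that are not array controls. A difference is called at an adjusted p under 0.05. The arrays fall into a set of 6 for ND8037, with mean signals from 5.36 to 5.38, and a set of 11 for the rest, with mean signals from 5.93 to 5.94, so levels were compared within a set only. In the same sets the 3' minus 5' signal of actin, a measure of RNA or labelling quality, ranged from 4.75 to 4.99 and from 2.70 to 3.02. The same measure for GAPDH ranged from -0.52 to 0.22 and from -0.18 to 0.68. These GAPDH ranges overlap, so it does not separate the sets as actin does. In NC2373, OsGS1;1 had means of 12.12 without the insertion and 8.75 in the mutants (-3.37, SE 0.236, adjusted p = 1.29e-05). In ND8037 they were 10.30 in the null and 8.06 in the mutants (-2.24, SE 0.211, adjusted p = 0.000271). The difference between these effects was not called (-1.13, adjusted p = 0.141). What the signal left in the mutants measures was not tested. In wild type and gs1;2, OsGS1;1 had means of 11.50 and 11.64. OsGS1;2 stood between 6.86 and 7.21 in gs1;2 and between 12.31 and 12.63 in wild type. Its control and mutant means were 12.78 and 12.81 in NC2373 and 12.39 and 12.57 in ND8037. Of 9 root markers, 7 lay above the median probe set in wild type, with the silicon transporters Lsi1 and Lsi2 among them.

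**Figure D1:**
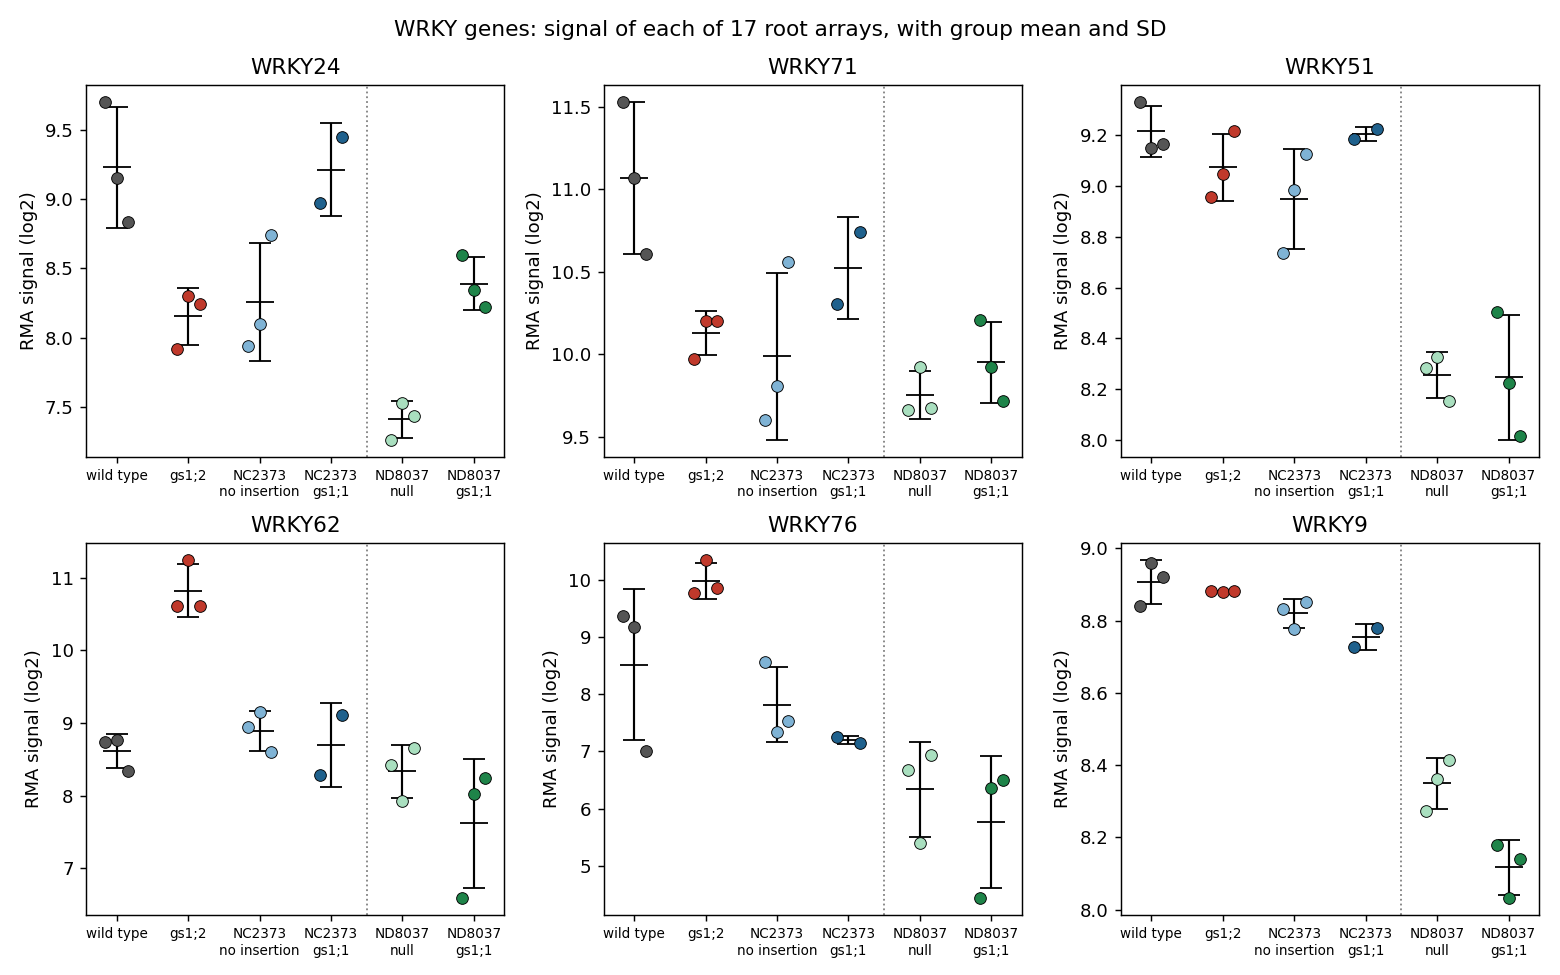
RMA signal on the log2 scale (y axis) of the 6 WRKY genes in each of the 6 groups (x axis). Each point is 1 array, the wide tick is the group mean and the bar is the SD; the dotted line separates the 6 ND8037 arrays from the other 11. WRKY62 lies between 10.60 and 11.24 in gs1;2 and at most at 9.15 in the other 3 groups of its array set, and WRKY24 is higher in the mutants than in the controls of either insertion line.

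In roots of the gs1;1 mutants, WRKY24 rose in both insertion lines. WRKY24 is known as a repressor of gibberellin and abscisic acid signalling in aleurone cells of the rice grain. Its signal was 7.94, 8.10 and 8.74 in NC2373 no insertion and 8.97 and 9.45 in the NC2373 mutants. In ND8037 it was 7.26, 7.53 and 7.44 in the null and 8.60, 8.35 and 8.22 in the mutants. Both mutant samples of NC2373 lay above all 3 of their controls, and all 3 mutant samples of ND8037 lay above all 3 of theirs.

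The group means of WRKY24 were 8.26 ± 0.43 (n = 3) and 9.21 ± 0.34 (n = 2) in NC2373, a difference of 0.95 (SE 0.251, adjusted p = 0.0318), or 1.94-fold. In ND8037 they were 7.41 ± 0.14 (n = 3) and 8.39 ± 0.19 (n = 3), a difference of 0.98 (SE 0.225, adjusted p = 0.0157), or 1.97-fold. The difference between these effects was -0.02, with a 95% interval from -0.74 to 0.70 (adjusted p = 0.983). WRKY24 was thus 1 of 636 probe sets called higher in both lines, 1.11% of those tested. They are 27.3% of the 2330 called higher in NC2373 and 25.2% of the 2520 in ND8037. In NC2373 the call was lost without any one of 4 of the 5 arrays. It gave 0.79 (adjusted p = 0.1185) without sample 152 and 0.87 (adjusted p = 0.08463) without sample 153 of the controls, and 1.19 (adjusted p = 0.05873) without sample 117 and 0.72 (adjusted p = 0.2678) without sample 118 of the mutants. In ND8037 it was lost without mutant sample 123 (0.87, adjusted p = 0.07081) and held without any one of the other 5.

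In the NC2373 mutants WRKY24 was the sole WRKY gene called, 1 of 6 against 7.65% of all probe sets, with 4.07% higher and 3.58% lower. WRKY51, a partner of WRKY71 in repressing gibberellin-induced genes of aleurone, was also without overlap, at 8.74, 8.98 and 9.13 in the controls and 9.18 and 9.23 in the mutants, but its difference of 0.26 was not called (adjusted p = 0.319). WRKY71 lay at 9.60, 9.81 and 10.56 in the controls and at 10.30 and 10.74 in the mutants, groups that overlap (0.53, SE 0.271, adjusted p = 0.284). Its second probe set gave 0.63 (SE 0.300, adjusted p = 0.243), also with overlap. WRKY76 lay lower in the mutants, at 7.25 and 7.15 against 8.57, 7.35 and 7.54, again with no call (-0.62, SE 0.696, adjusted p = 0.701). Higher groups without overlap made up 15.9% and lower ones 20.0% of all probe sets in this comparison, which has 2 samples in 1 group, so 3 of 6 such WRKY genes is a count to read against those shares. WRKY62 and WRKY9 differed by -0.19 and -0.07 (adjusted p = 0.853 and 0.707).

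In the ND8037 mutants WRKY9 was called besides WRKY24. That made 1 gene higher against 4.40% of all probe sets and 1 lower against 4.68%, or 2 of 6 against 9.08%. WRKY9, to which no role is assigned here, lay at 8.27, 8.36 and 8.41 in the null and at 8.18, 8.03 and 8.14 in the mutants. The groups did not overlap, as for 16.5% of all probe sets in this direction and for 11.9% in that of WRKY24. The fall was -0.23 (SE 0.0677, adjusted p = 0.0456), a change of 1.17-fold. It was called without null sample 156 and lost without any one of the other 5 arrays: -0.26 (adjusted p = 0.07051), -0.19 (0.1345) and -0.24 (0.08794) without mutant samples 123, 124 and 125, and -0.23 (0.1076) and -0.20 (0.1406) without null samples 157 and 158. WRKY71 differed by 0.20 (SE 0.242, adjusted p = 0.671), with an interval from -0.32 to 0.71. Its second probe set gave 0.00092 (SE 0.268, adjusted p = 0.999). WRKY51 differed by -0.01 (adjusted p = 0.979).

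WRKY62 and WRKY76, both known as repressors of rice immunity, had no call in either gs1;1 line. WRKY62 is also annotated as XB10, a protein that binds the bacterial blight receptor XA21. In ND8037 it lay at 8.42, 7.93 and 8.66 in the null and at 6.59, 8.02 and 8.24 in the mutants (-0.72, SE 0.355, adjusted p = 0.233). WRKY76 lay at 6.68, 5.40 and 6.94 in the null and at 4.44, 6.37 and 6.50 in the mutants (-0.57, SE 0.623, adjusted p = 0.626). Sample 123 was the lowest of its group in both genes, and without it WRKY76 stood at 0.09 (from -0.57) and WRKY62 at -0.21 (adjusted p = 0.7435). None of the 6 genes was called in the difference between the lines, where 0.00873% of all probe sets were called by limma. No WRKY gene had an unadjusted p under 0.05 there (0 of 6), a rule whose share over all probe sets is not given here.

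Markers of green tissue moved with these comparisons. Over 7 markers the mean signal ranged from 7.83 to 8.36 in NC2373 no insertion and from 9.54 to 9.82 in the mutants. In that line 5 of 7 were called higher, against 4.07% of all probe sets. The mean signal ranged from 7.40 to 7.97 in ND8037 null and from 8.26 to 9.27 in the mutants. There, 3 of 7 were called higher, against 4.40%. In wild type the mean signal ranged from 6.74 to 7.64 and in gs1;2 from 6.42 to 6.91. None was called by limma in gs1;2, against 4.03%. In NC2373 no insertion against wild type, 2 of 7 were called higher, with a median difference of 1.04. In that comparison 0.913% of all probe sets were called in either direction. In every group 6 of the 7 markers lay above the median probe set. Of 9 root markers, 1 was called higher in each gs1;1 line, against 4.07% of all probe sets in NC2373 and 4.40% in ND8037. None was called lower there, against 3.58% and 4.68%, and none was called in NC2373 no insertion against wild type. In gs1;2, 1 root marker was called higher, against 1.67%, and 2 lower, against 2.37% (median difference -0.19). The mean signal of the root markers ranged from 8.07 to 8.15 in gs1;2 against 8.22 to 8.54 in wild type. The part of these markers in the WRKY values was not tested, and in bulk roots more cells of a type and more RNA per cell cannot be told apart.

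In roots of the gs1;2 mutants, WRKY62 rose most of the 6 genes. It lay at 8.74, 8.76 and 8.34 in wild type and at 10.61, 11.24 and 10.60 in gs1;2. All 3 mutant samples lay above every other array of their set. The means were 8.62 ± 0.24 (n = 3) and 10.82 ± 0.37 (n = 3), a difference of 2.20 (SE 0.355, adjusted p = 0.0037), or 4.61-fold, which was the rise of rank 50 among all probe sets. The call held without any one of the 6 arrays, with differences from 1.99 to 2.31 and adjusted p from 0.00827 to 0.0220.

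WRKY76 is the neighbour of WRKY62 in the RefSeq gene table, with no gene listed between them. It is known to repress phytoalexin synthesis genes and blast resistance, and to raise cold tolerance, when overexpressed. Its values were 9.37, 9.18 and 7.00 in wild type and 9.76, 10.34 and 9.85 in gs1;2. The mutant samples lay above the wild type samples, as did 13.2% of all probe sets, but wild type sample 629 was more than 2 below the others of its group. The difference of 1.47 (SE 0.623) had an interval from 0.14 to 2.80 and was not called (adjusted p = 0.209). Without sample 629 it fell to 0.71 (adjusted p = 0.5317), and without sample 627 it was 1.90 (adjusted p = 0.1594).

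WRKY24 and WRKY71 fell in gs1;2. WRKY71 is known to repress gibberellin responses in aleurone and to be induced in defence, and shares its structural group with WRKY62 and WRKY76. WRKY24 lay at 9.70, 9.15 and 8.84 in wild type and at 7.92, 8.30 and 8.24 in gs1;2, with no overlap (-1.08, SE 0.225, adjusted p = 0.0163). WRKY71 lay at 11.53, 11.07 and 10.61 in wild type and at 9.97, 10.20 and 10.21 in gs1;2, also with no overlap (-0.94, SE 0.242, adjusted p = 0.0425). Its second probe set gave -1.02 (SE 0.268, adjusted p = 0.0460). So 3 of 6 genes were called against 4.03% of all probe sets. Of these, 1 rose, against 1.67% of all, and 2 fell, against 2.37%. In all, 11.7% of probe sets lay lower without overlap.

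Both falls depended on single arrays for their call, though not for their direction. WRKY24 gave -0.84 (adjusted p = 0.06512) without wild type sample 627, and -0.96 (0.05179) and -1.12 (0.06137) without mutant samples 354 and 356. WRKY71 gave -0.71 (adjusted p = 0.1455) and -0.94 (0.1194) without wild type samples 627 and 628, and -0.86 (0.1066), -0.98 (0.09449) and -0.98 (0.1244) without mutant samples 354, 355 and 356. When just the wild type and gs1;2 arrays were fitted, neither was called (adjusted p = 0.0776 for WRKY24 and 0.09578 for WRKY71), and WRKY71 was not called with a trended robust variance prior (adjusted p = 0.05046). WRKY51 and WRKY9 differed by -0.14 and -0.03 (adjusted p = 0.588 and 0.879). WRKY9 lay between 8.84 and 8.96 in wild type and at 8.88 in all 3 mutant samples, the narrowest group of the family.

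**Figure D2:**
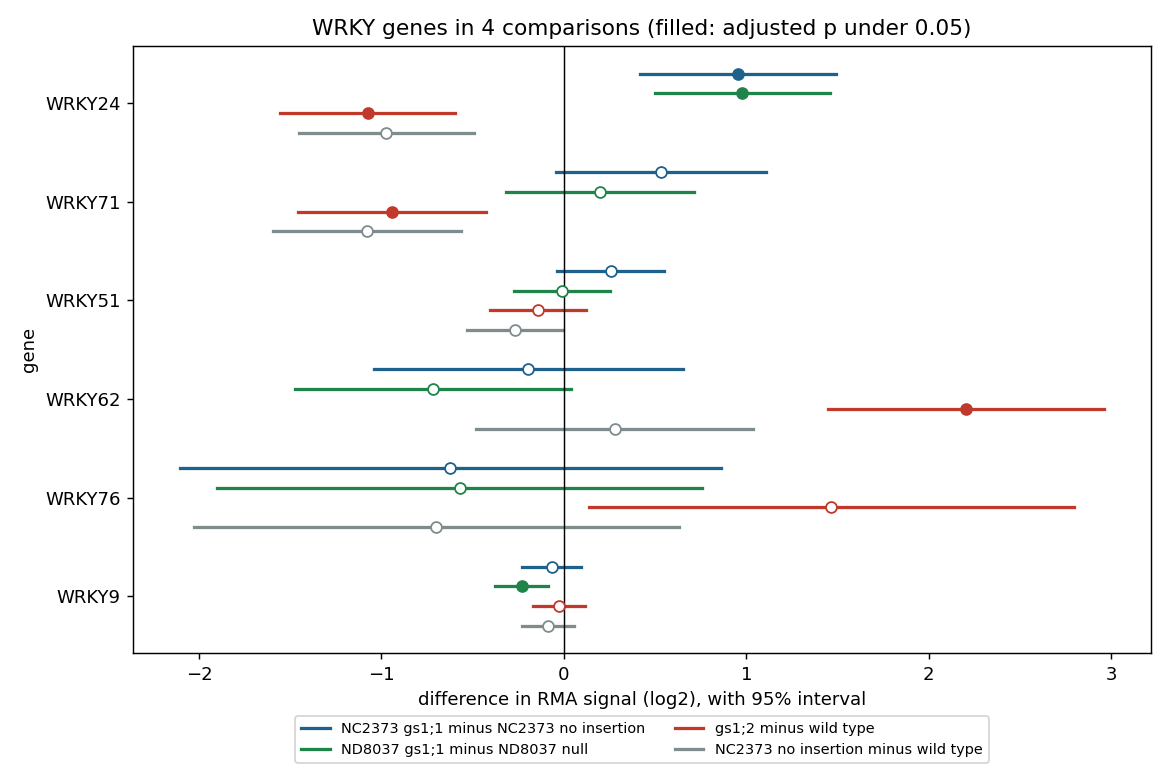
Difference in RMA signal on the log2 scale (x axis) for each WRKY gene (y axis) in 4 comparisons, with the 95% interval of limma as a line. Filled points have an adjusted p under 0.05: WRKY24 in NC2373, ND8037 and gs1;2, WRKY71 and WRKY62 in gs1;2, and WRKY9 in ND8037. The 2 comparisons against wild type share the wild type arrays, and those of NC2373 share the no insertion arrays.

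The gs1;2 and gs1;1 effects, each against its own control, were then compared, a test added after the values were seen. The controls differ in kind, wild type for gs1;2 and segregated plants for gs1;1, so isoform and control cannot be told apart. For WRKY24, NC2373 no insertion (8.26) and gs1;2 (8.15) lay below wild type (9.23) and the NC2373 mutants (9.21). The gs1;2 effect minus the gs1;1 effect on WRKY24 was -2.03 with NC2373 (SE 0.337, adjusted p = 0.00502) and -2.05 with ND8037 (SE 0.318, adjusted p = 0.00146). These calls held without any one array. Of all probe sets, 37 (0.0646%) were called higher in NC2373 and ND8037 mutants and lower in gs1;2, and WRKY24 was among them. For WRKY62 the gs1;2 effect was the higher, by 2.40 against NC2373 (SE 0.533, adjusted p = 0.0225) and by 2.92 against ND8037 (SE 0.502, adjusted p = 0.00262). The first was lost without NC2373 no insertion sample 153 (2.27, adjusted p = 0.05205), NC2373 mutant sample 117 (1.99, adjusted p = 0.1066) or gs1;2 sample 355 (2.19, adjusted p = 0.05411), and the second held without any one array.

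For WRKY71 the gs1;2 effect was lower, with -1.47 against NC2373 (SE 0.363, adjusted p = 0.0358) and -1.14 against ND8037 (SE 0.342, adjusted p = 0.0432). Its second probe set gave -1.66 (adjusted p = 0.0340) and, without a call, -1.02 (adjusted p = 0.0947), and the mean of both probe sets was not called against ND8037 (-1.08, adjusted p = 0.06347). These calls were lost without any one of 9 of 11 and 10 of 12 arrays, with differences from -1.76 to -1.24 and from -1.37 to -0.91 over all arrays left out in turn. The exceptions were NC2373 no insertion sample 154 and wild type sample 629 in the first and wild type sample 629 and ND8037 mutant sample 125 in the second. WRKY76 differed by 2.09 and 2.04 without a call (adjusted p = 0.242 and 0.150). In each, 3 of 6 genes were called, against 4.00% of all probe sets with NC2373 (1.64% higher, 2.36% lower) and 11.8% with ND8037 (5.21% higher, 6.59% lower). The comparison with ND8037 sets an effect in one array set against an effect in the other.

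In plants without an insertion, the NC2373 line was compared with wild type, to see how far the controls of that line differ from it. No WRKY gene was called by limma, against 0.913% of all probe sets. An unadjusted p under 0.05 held for 3 of 6, and the share of all probe sets under that looser rule is not given here. WRKY71 and WRKY24 came nearest to a call, at -1.08 (SE 0.242, adjusted p = 0.0506) and -0.97 (SE 0.225, adjusted p = 0.0573). The second probe set of WRKY71 gave -1.14 (SE 0.268, adjusted p = 0.0617). WRKY71 lay at 9.60, 9.81 and 10.56 against 11.53, 11.07 and 10.61 in wild type, and WRKY24 at 7.94, 8.10 and 8.74 against 9.70, 9.15 and 8.84, neither with overlap. WRKY51 was the last of the 3 lower genes without overlap (-0.27, adjusted p = 0.385), where 8.26% of all probe sets lay lower without overlap.

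Single arrays set the side of the threshold here. Without NC2373 no insertion sample 154, which was the highest of its group in both genes, WRKY71 stood at -1.37 (adjusted p = 0.01355) and WRKY24 at -1.21 (adjusted p = 0.02087). Without wild type sample 629, the lowest of its group in both, they stood at -1.31 (adjusted p = 0.0128) and -1.17 (adjusted p = 0.01854). The 2 green-tissue markers called higher in this comparison stand beside these values, and their part was not tested. WRKY62, WRKY76 and WRKY9 differed by 0.28, -0.70 and -0.09 (adjusted p = 0.833, 0.730 and 0.673). The interval for WRKY62, from -0.48 to 1.04, lay below its difference in gs1;2.

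Within the 11 arrays the order of group means differed between the genes. WRKY24 ran from wild type (9.23) and the NC2373 mutants (9.21), which overlapped, down to NC2373 no insertion (8.26) and gs1;2 (8.15), which overlapped with each other and not with the upper pair. WRKY71 ran from wild type (11.07) through the NC2373 mutants (10.52) and gs1;2 (10.13) to NC2373 no insertion (9.99), where of the neighbours only the NC2373 and gs1;2 mutants did not overlap. The effect in NC2373 is thus measured from a control that lay below wild type in both genes. WRKY62 had gs1;2 on top (10.82), with the other 3 groups between 8.62 and 8.89 and overlapping in order. WRKY76 had gs1;2 on top as well (9.98), then wild type (8.52), NC2373 no insertion (7.82) and the NC2373 mutants (7.20). All neighbours of WRKY51 overlapped, with means from 8.95 to 9.22, and the means of WRKY9 lay between 8.75 and 8.91.

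WRKY24 and WRKY71 also moved together from array to array within the groups. After subtraction of each group's mean, their values correlated over the 17 arrays (r = 0.98, Spearman's rho = 0.97). Without the 2 arrays farthest from the median in WRKY24, r was 0.96, within the 11 arrays it was 0.98 and within the 6 of ND8037 it was 0.94. Of all probe sets, the 2 of WRKY71 were those of rank 1 and 2 in this correlation with WRKY24. Arrays of a group share their growth and line but no recorded pairing, and whether all values share 1 normalization is not stated. Subtracting 6 group means leaves fewer free values than arrays, so this is a description without a test. WRKY51 followed more loosely (r = 0.69 with WRKY24).

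WRKY62 and WRKY76, the neighbouring genes, had r = 0.72 over the same 17 arrays, with rank 456 of all probe sets in the correlation with WRKY76. Their r was 0.41 within the 11 arrays and 0.97 within the 6, and 0.59 without the 2 arrays farthest in WRKY76. Between the pairs, r had opposite signs in the array sets. For WRKY24 and WRKY76 it was 0.35 within the 11 arrays, -0.86 within the 6 and 0.05 over all 17. For WRKY24 and WRKY62 it was 0.27, -0.85 and -0.08. WRKY71 had r = -0.94 with both WRKY76 and WRKY62 within the 6 arrays. There, mutant sample 123 and null sample 157 were the lowest of their groups in WRKY76 and WRKY62. Both were the highest of their groups in WRKY24 and WRKY71. These r rest on few arrays and were not tested.

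**Figure D3:**
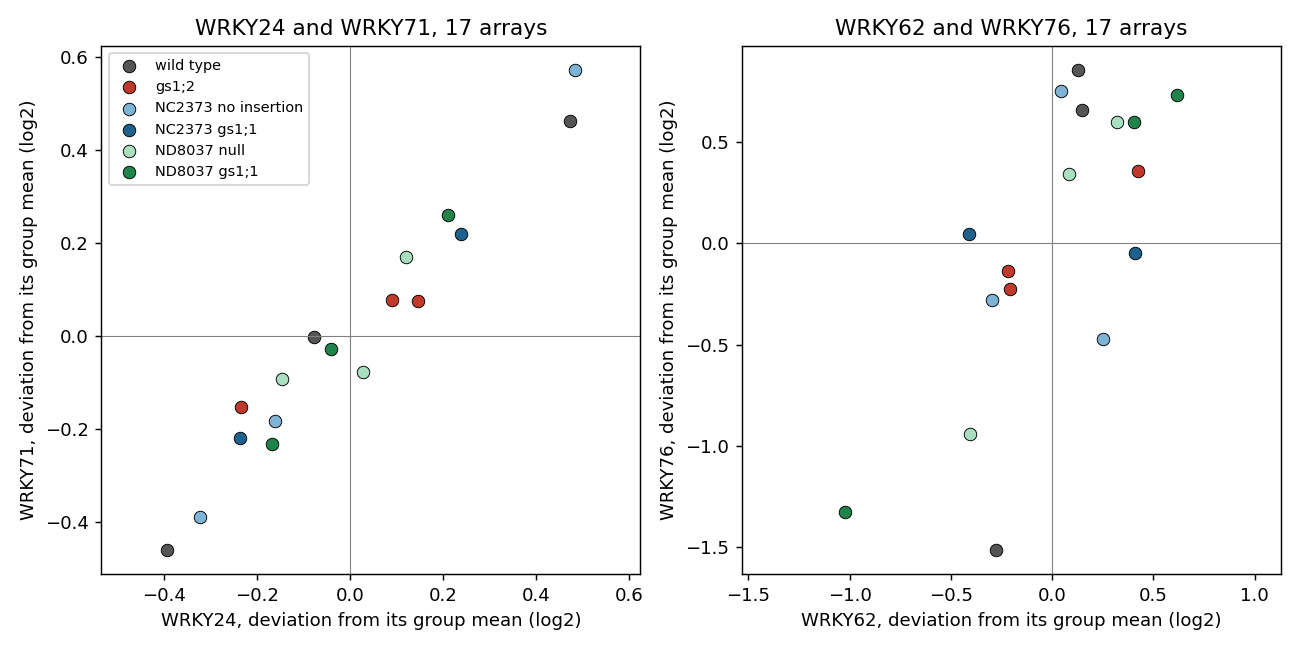
Deviation of each array from its own group mean on the log2 scale, for WRKY71 against WRKY24 (left) and WRKY76 against WRKY62 (right), over 17 arrays coloured by group. The left points follow a line (r = 0.98), and the right points scatter more (r = 0.72), with the lowest WRKY76 values in wild type sample 629 and ND8037 mutant sample 123.

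Genes that act around WRKY factors in defence were described from a list of 30 names of receptors, kinases, regulators and targets. By symbol or synonym these names matched 15 measured genes. By role, CEBIP and LYP4 bind chitin or peptidoglycan at the cell surface, and CERK1 is the receptor kinase that acts with them. RAC1 is a small GTPase of immunity and RBOHB an NADPH oxidase, while MPK3 is a kinase that phosphorylates WRKY factors. The gene listed as MPK6 was matched by name alone, and whether it is the immune kinase of that name was not checked. NH1 is the rice NPR1, a coactivator of salicylate responses, with NH2 and NPR3 as relatives, and PBZ1 is a pathogenesis-related gene. NH2, MAP3 and RLK10 entered the list through synonyms that they share with NH1, MPK3 and CERK1.

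Few of them were called. In gs1;2, RAC1 and MPK3 fell, 2 of 15 against 2.37% of all probe sets, and none rose. RAC1 lay at 7.10, 7.53 and 7.36 in wild type and at 6.46, 6.45 and 6.22 in gs1;2 (-0.95, SE 0.175, adjusted p = 0.00822), a call lost without mutant sample 356 (-0.87, adjusted p = 0.05514). MPK3 lay at 11.17, 10.85 and 10.53 in wild type and at 10.02, 10.30 and 10.05 in gs1;2 (-0.73, SE 0.179, adjusted p = 0.0358). Neither gene overlapped between the groups. The call of MPK3 was lost without wild type sample 627 or 628 (-0.57 and -0.73, adjusted p = 0.1265 and 0.106) and without mutant sample 354, 355 or 356 (-0.67, -0.82 and -0.69, adjusted p = 0.09129, 0.05695 and 0.1475). In NC2373 no insertion, MPK3 stood at -0.72 from wild type (adjusted p = 0.0760). None of the 15 genes was called there by limma, against 0.913% of all probe sets. An unadjusted p under 0.05 held for 1 of them, a rule whose share over all probe sets is not given here. MPK3 reached a call there without NC2373 no insertion sample 154 (-0.92, adjusted p = 0.0242) or wild type sample 629 (-0.88, adjusted p = 0.02531).

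In each gs1;1 line, 1 gene was called, NH2 in NC2373 and NH1 in ND8037. That is 1 of 15 against 7.65% of all probe sets in NC2373 and 9.08% in ND8037, so the share called is near the background. In NC2373, 7 of 15 lay lower without overlap, against 20.0% of all probe sets, and 1 higher, against 15.9%. In ND8037, 2 of 15 lay lower without overlap, against 16.5%, and 1 higher, against 11.9%. An unadjusted limma p under 0.05 held for 4 of 15 in NC2373 and 3 of 15 in ND8037. The share of all probe sets under that rule is not given here, so these counts are not read as an excess. NH2 rose in NC2373 from 10.70, 10.78 and 10.81 to 11.05 and 11.30 (0.41, SE 0.0961, adjusted p = 0.0181), which was lost without no insertion sample 152 (0.38, adjusted p = 0.06846) or mutant sample 118 (0.28, adjusted p = 0.2161). NH1 fell in ND8037 from 11.51, 11.37 and 11.71 to 10.60, 10.87 and 10.95 (-0.72, SE 0.198, adjusted p = 0.0349). That call was lost without any one of the 6 arrays: samples 123, 124 and 125 of the mutants gave adjusted p = 0.1341, 0.06109 and 0.05552, and samples 156, 157 and 158 of the null gave 0.06816, 0.05963 and 0.1177, with differences from -0.80 to -0.62. In the difference between the lines none of the 15 was called by limma, against 0.00873% of all probe sets. An unadjusted p under 0.05 held for 4, again with no share over all probe sets given. These were NH2, RAC1, RBOHB and LYP4. Without a call, RAC1, RBOHB and LYP4 differed by -0.59, -0.63 and -0.89 in NC2373 (adjusted p = 0.0837, 0.0607 and 0.0803). In ND8037 they differed by 0.34, 0.21 and 0.56, also without a call (adjusted p = 0.254, 0.495 and 0.206). The median difference over the list was -0.12 in NC2373, 0.05 in ND8037, 0.01 in gs1;2 and 0.06 in NC2373 no insertion, beside -0.02, -0.04, 0.02 and -0.0033 over all probe sets. PBZ1, singled out after its values were seen, ranged from 8.99 to 12.21 in NC2373 no insertion and had no call in any of the 4 comparisons.

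**Figure D4:**
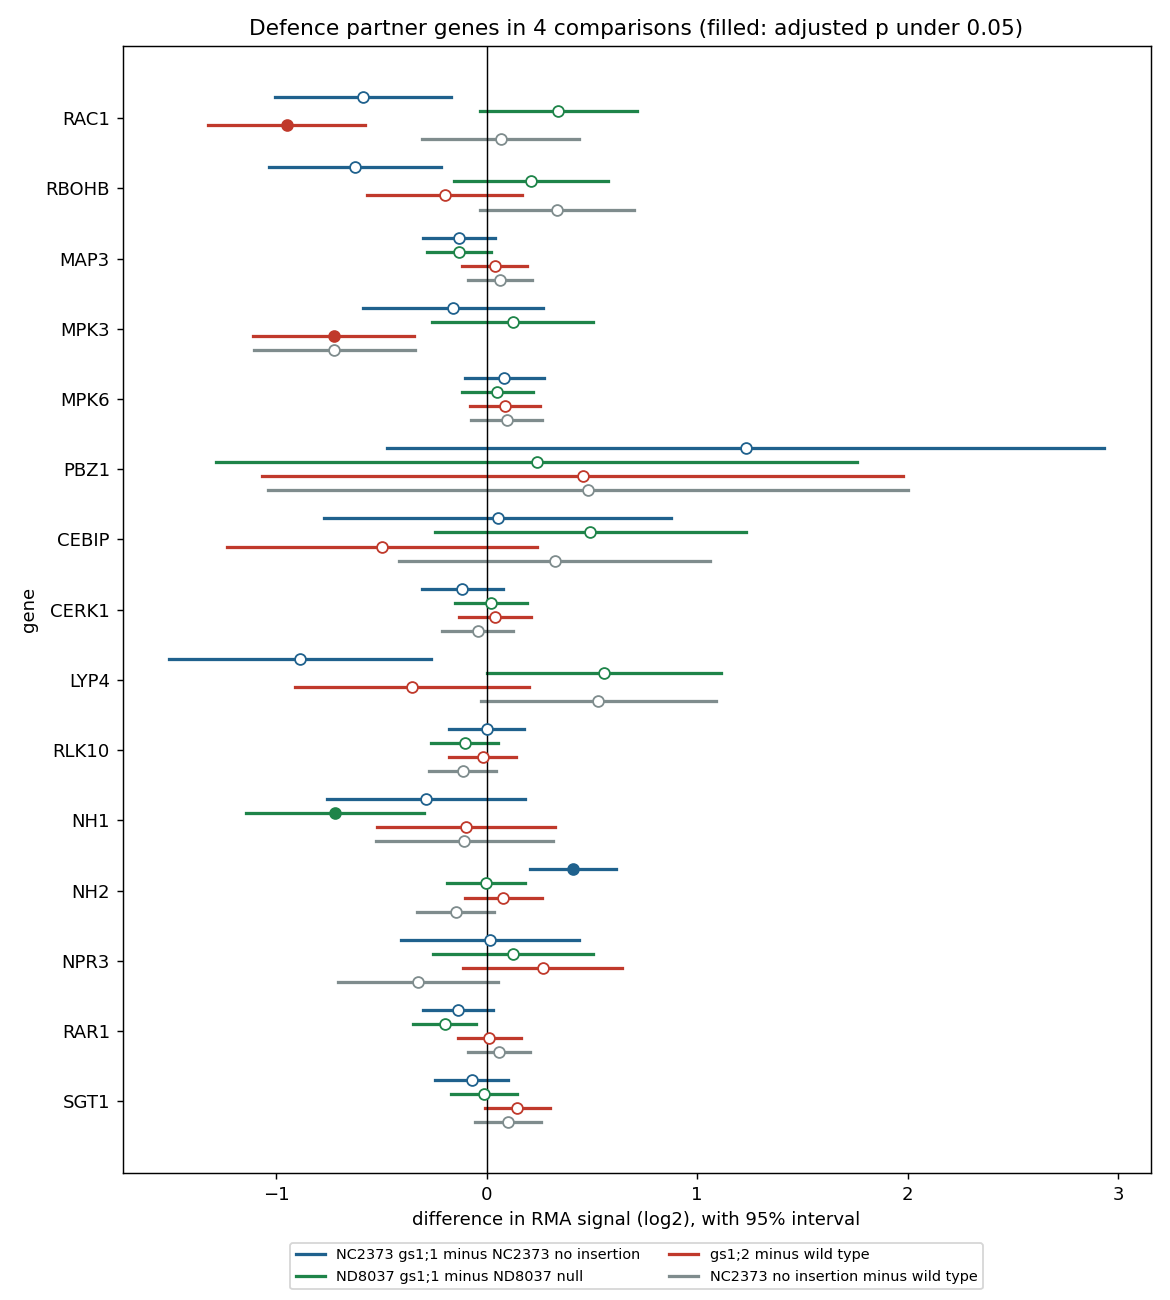
Difference in RMA signal on the log2 scale (x axis) of the 15 genes matched to the defence list by name or synonym (y axis, ordered by listed role) in 4 comparisons. The line is the 95% interval of limma. Filled points have an adjusted p under 0.05, which holds for RAC1 and MPK3 in gs1;2, NH1 in ND8037 and NH2 in NC2373.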

How the data were processed

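Root RNA was measured on 17 arrays. The deposited values are log2 signals that the authors summarised with RMA, per the submitters' processing notes, which name no software version. Whether all arrays were normalized in a single run is not stated either, and levels from separate runs are not comparable. Sample titles gave the groups. After removal of 123 control probe sets, limma 3.58.1 under R 4.3.3 was fitted to the remaining 57258, bright or dim, with 1 mean per group and an empirical Bayes variance (11 residual and 3.83 prior degrees of freedom). The fit was first run on simulated independent values for the ND8037 comparison alone. That run did not cover the shift between the array sets or the smaller NC2373 mutant group. Tests were two-sided, with Benjamini-Hochberg adjustment over all 57258 and a threshold of 0.05. The number of arrays limits the precision. The series' design text calls the samples biological replicates.

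Genes were named through GEO's platform annotation, updated by gene identifier from a RefSeq table (assembly ASM3414082v1), for 22436 probe sets of 1 gene. An actin gene also annotated RAC1 was left out of the defence list, which means the GTPase. The members and lists were chosen with earlier results of these data known. All WRKY genes and each called defence gene were named. Figures used Python 3.11.15 and matplotlib 3.10.9. Alternatives covered normalization, a signal filter, the groups fitted, the variance prior, probe set averaging, a fold rule and leaving out each array.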

Additional observations from a re-analysis of the deposited data

Results flagged for a closer look

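The difference of gs1;2 from wild type and that of the gs1;1 mutants from their own controls were unlike in 3 WRKY genes, by a test added after the values were seen. The gs1;2 effect minus the gs1;1 effect was -2.03 in NC2373 and -2.05 in ND8037 for WRKY24, 2.40 and 2.92 for WRKY62, and -1.47 and -1.14 for WRKY71. The gs1;2 plants have no segregated control, and NC2373 plants without the insertion also lay below wild type in WRKY24 (-0.97) and WRKY71 (-1.08), without a call, so loss of a given isoform and other differences between the plants cannot be told apart here. Groups of 2 or 3 arrays were not tested for outliers.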

How the results depend on the processing

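WRKY24 in ND8037 and WRKY62 in gs1;2 kept their calls under all 6 alternative fits, with WRKY62 at adjusted p from 0.00329 to 0.00698. When just the 2 groups of a comparison were fitted, the WRKY count was 0 in NC2373 gs1;1, 1 in ND8037 gs1;1 and 1 in gs1;2, and the defence count 0, 2 and 1. With median centring or with the trended robust prior, ND8037 gs1;1 had 1 WRKY call, WRKY9 being lost. WRKY71 was also lost under that prior in gs1;2 and in gs1;2 minus ND8037 effects, leaving 2 calls in each. NC2373 no insertion against wild type had 1 after quantile normalization and 2 with brighter probe sets only, a setting that gave 2 defence calls in each gs1;1 line. With a difference of at least 1 also required, both counts were 0 in both gs1;1 lines, and the defence count 0 in gs1;2. With each array left out in turn, WRKY counts ranged from 0 to 1 in NC2373 gs1;1, 0 to 2 in ND8037 gs1;1, 1 to 3 in gs1;2, 0 to 2 in NC2373 no insertion, 1 to 3 for gs1;2 minus NC2373 effects and 2 to 3 for gs1;2 minus ND8037 effects, and defence counts from 0 to 1, 0 to 0, 0 to 2 and 0 to 1 in the first 4. Signs turned only in values without a call. After quantile normalization the line difference of WRKY24 was 0.0484 and WRKY9 in gs1;2 0.0304, and after median centring WRKY51 in ND8037 was 0.0038. Leaving out arrays gave -0.26 to 0.22 for the line difference of WRKY24, -0.71 to 0.42 for that of WRKY76, -0.14 to 0.11 for WRKY51 and -1.04 to 0.0937 for WRKY76 in ND8037, and -0.61 to 0.22 for WRKY62 in NC2373. The cause of these shifts was not tested. Where NC2373 gs1;1 was left with 1 array, that array was assumed to vary like the other groups. No paired analysis was possible because sample numbers are not shared between groups.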
